A study of Mus musculus with 15 samples.

Results

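The 9 genes described here encode small heat shock proteins (Hspb1, Hspb8, Hspb6 and Cryab) and co-chaperones of the BAG family (Bag1, Bag2, Bag3, Bag4 and Bag5). They were chosen by name, as holdases and nucleotide exchange factors of HSP70, from the 20207 genes listed in each table, and 8 of the 9 had at least 1 count in every sample and entered the test across 10276 genes. mRNA came from the mouse fibroblast line NIH3T3, here with a stable DD-sfGFP transgene, in which a destabilizing domain (DD) made from FKBP is joined to superfolder GFP. The ligand Shield-1 (S1) keeps the domain folded, and the domain unfolds when S1 is taken away. All 15 samples carried DD-sfGFP. The 5 control samples kept S1 and are labelled with no stress at time 0, and 3, 3 and 4 samples were collected 45, 135 and 405 min after S1 removal, which the study's methods describe as the addition of a purified FKBP protein to the medium. The cells were a population sorted for high GFP, and no source used here says that they were 1 clone or that the samples of a group came from separate cultures, so p-values measure the spread between these samples, which may be technical.

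Small heat shock proteins bind proteins that have lost their fold and hold them in a soluble state without using ATP. BAG proteins bind the ATPase domain of HSP70 through a shared BAG domain and speed the release of ADP, which lets HSP70 let go of its client. BAG3 also carries motifs that bind small heat shock proteins, above all HSPB8, and the BAG3 and HSPB8 complex hands HSP70 clients to the autophagy receptor SQSTM1. Several of these genes, such as Cryab and Hspb6, are best known from muscle and lens, and heat shock factor 1 is a known regulator of Hspb1, Cryab and Bag3.

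Bag3, Hspb8 and Cryab rose after S1 withdrawal, and Hspb6 fell. At 405 min Bag3 was 2.82-fold and Hspb8 2.62-fold above control, Cryab was 1.76-fold above it, and Hspb6 had a log2 fold change of -0.59. At that time 9.99% of all tested genes rose and 13.4% fell. Of 28 alternative fits at 405 min, Bag3 and Hspb8 passed in all, Cryab in 25 and Hspb6 in 20. In an F-test over the 3 time points together Hspb6 did not pass (edgeR adjusted p = 0.0866). Bag1, Bag2, Bag4 and Bag5 did not pass the test at any time. Hspb1, which encodes the mouse HSP25 protein, was close to absent from the tables. At 135 min only Bag3 passed, where 0.564% of all tested genes rose and 0.895% fell. At 45 min none of the 8 tested members passed, and 0.00% of all tested genes did in either direction.

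RefSeq promoters (GRCm38.p6, 250 bases before to 50 after the start of the transcript) were given for 7 of the 9 members, and Cryab and Bag4 had no entry. They were searched for the inverted repeats that heat shock factors bind, GAANNTTC and TTCNNGAA, each of which reads the same on both strands. The longer forms GAANNTTCNNGAA and TTCNNGAANNTTC, which contain the short ones, were also searched on both strands. GAANNTTC occurs in 7.86% and TTCNNGAA in 8.52% of the 32851 promoters of the table, and a long form in 0.603%. No member promoter held a long form or TTCNNGAA, and GAANNTTC occurred in 4 of the 7 members. The shares above are per promoter, whereas these 7 members had 9 promoters, since Hspb6 and Bag5 each had a further start site. The first start site of Hspb6 held no match. The following lines of 30 bases show the matches, because the genes that hold them include the 2 members with the largest rise, the member that fell and the member that was hardly detected. Capitals mark the match.
Bag3, chr7:128523603-128523632, plus strand: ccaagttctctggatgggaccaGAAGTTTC
Hspb8, chr5:116422844-116422873, minus strand: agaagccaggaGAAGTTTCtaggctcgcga
Hspb6, second start site, chr7:30553170-30553199, plus strand: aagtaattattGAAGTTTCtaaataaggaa
Hspb1, chr5:135887801-135887830, plus strand: aGAAGTTTCcagatgggggcaGAACCTTCc
All 4 genes held the same 8 letters, GAAGTTTC, which were found on either strand in 1.21% of all promoters in a search made after the matches were seen. The match began 43 bases after the start in Bag3, 3 bases after it in Hspb8, 120 bases before it in Hspb6, and 117 and 97 bases before it in Hspb1. A match is a description of the sequence and says nothing of binding. The window of Bag3 ends with its match, so bases that follow were not read.

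Library depth ranged from 6652539 counts (control replicate 3) to 30258404 counts over the 15 samples, and counts scaled to the library total (CPM) given below use TMM-scaled library sizes. By the slope of expression on exonic GC, the libraries fell into sets that cut across the groups. Replicates 1, 2 and 4 at 405 min, replicate 3 at 45 min and control replicate 2 formed set 2, and the other 10 libraries formed set 1, all 135-min samples among them. For the 4 members called against control, values within each set are therefore given at 405 min, where each set held both groups. At 135 min values within set 1 are given for Bag3 and Hspb8 only. For other genes, a fit with the set as a covariate is given where it changed a call against control, and for some other values. A value given without that fit may also have moved with it. Of 8 fibroblast markers all were tested, and their summed level was 15289 to 18192 CPM in control and 11973 to 16440 CPM at 405 min, when 4 of the 8 had fallen (Col1a2, Col3a1, Vim and Pdgfrb), against 13.4% of all tested genes. The 7 muscle markers summed to between 12.8 and 43.5 CPM over all samples, nearly all of it Tnnt2, and Myod1, Myog, Des and Ckm had between 0 and 17 counts in any sample. Epithelial, endothelial and blood markers summed to at most 2.39, 3.83 and 4.80 CPM. In bulk RNA, fewer cells of a type and less RNA per cell cannot be told apart.

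Before S1 was withdrawn, the members differed widely in level. By the deposited RPKM, which corrects for transcript length, the control means were 54.7 ± 15 (SD, n = 5) for Cryab and 50.4 ± 8.9 for Bag1, and these 2 genes held the first and second place in every one of the 15 samples. Their ranges in control, 31.5 to 67.2 and 35.8 to 58.2 RPKM, overlapped throughout. Hspb8 came next with 12.0 ± 4.48 RPKM, followed by Hspb6 with 9.52 ± 3.20, Bag2 with 9.52 ± 2.52, Bag3 with 8.14 ± 2.93 and Bag5 with 7.34 ± 3.27, and these 5 genes did not differ from their neighbours beyond the spread of the samples. Bag4 was eighth in every sample, with 3.19 ± 0.434 RPKM in control. The RPKM of control replicate 3 was scaled differently from the other files, since its gene counts were only 0.6 of the total that its RPKM implies, relative to control replicate 1, so levels are compared below by CPM or within a library.

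**Figure D1:**
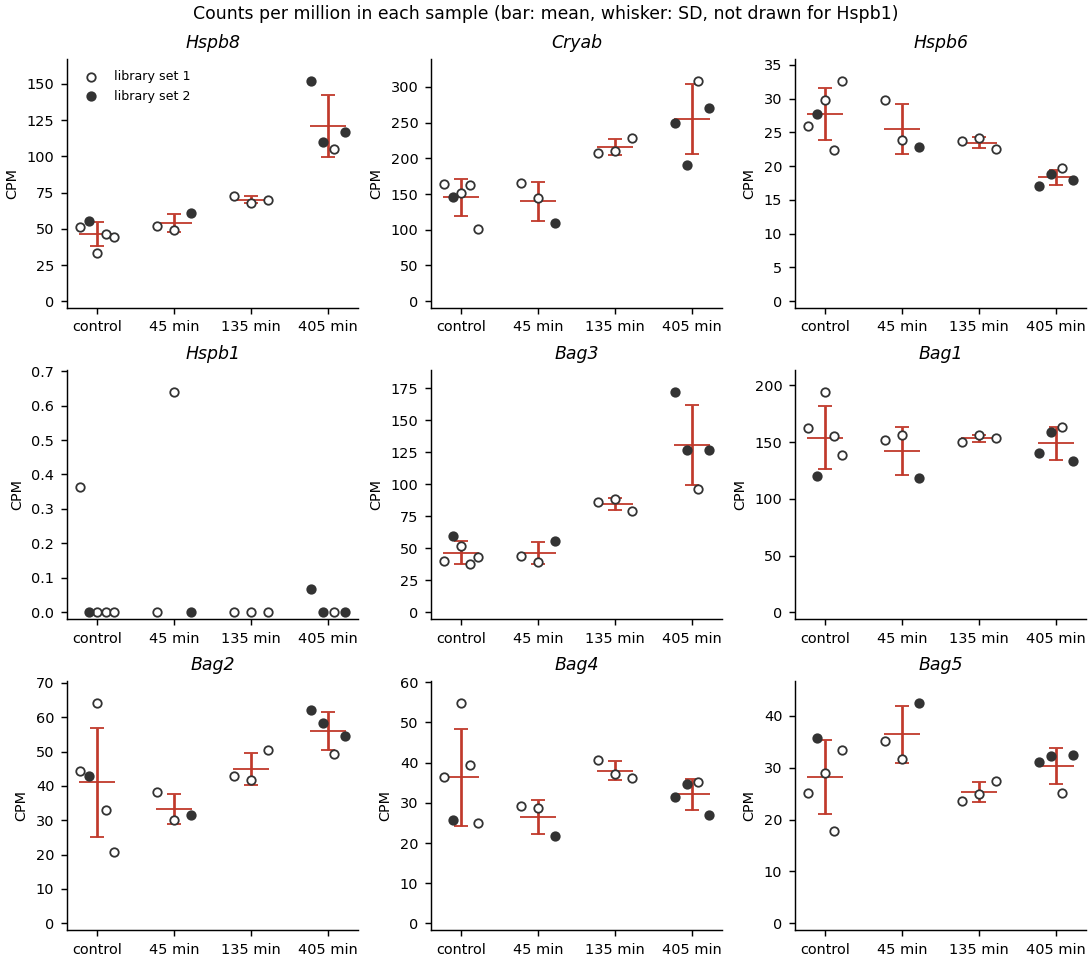
Library-scaled counts (CPM, linear axis) of the 9 genes in each of the 15 samples, by group, with open points for library set 1 and filled points for set 2; red bars are the group mean and whiskers the SD, both left out for Hspb1. All 405-min points of Hspb8, Bag3 and Cryab lie above all controls, and all 405-min points of Hspb6 lie below them.

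Bag3 (mm9, chr7:135667097-135690491, plus strand) had 40.1, 59.8, 51.7, 37.7 and 43.4 CPM in the 5 controls. It had 43.7, 39.0 and 55.7 CPM at 45 min, 86.2, 88.7 and 79.5 CPM at 135 min, and 172, 127, 96.5 and 127 CPM at 405 min. The 45-min samples lay among the controls, and all samples at 135 and 405 min lay above the highest control. Control replicate 2 and replicate 3 of the 45-min samples, both of set 2, were the highest of their groups, and the lowest sample at 405 min was the only one from set 1. The log2 fold change was -0.01 (SE 0.20, edgeR adjusted p = 0.986) at 45 min, 0.87 (SE 0.20, edgeR adjusted p = 0.04) at 135 min and 1.5 (SE 0.18, edgeR adjusted p = 0.000161) at 405 min. The rise at 405 min was 1.16 in set 1 alone (SE 0.19), which held 1 sample at 405 min. It was 1.24 in set 2 alone (SE 0.25), which held 1 control, the lone sample being assumed to vary like the other groups. It passed in all 28 alternatives, with the lowest value, 0.93, under a correction for GC content. The call at 135 min held within set 1 (edgeR adjusted p = 0.00417). It failed in 9 of the 15 fits that left out 1 library: any of the 135-min replicates (adjusted p up to 0.194), replicate 1, 4 or 5 of the controls, replicate 1 at 45 min, or replicate 2 or 4 at 405 min. From 135 to 405 min Bag3 did not pass (0.63, SE 0.21, edgeR adjusted p = 0.0874). That value was 0.24 with the set as a covariate, 0.17 within set 1 and 0.12 with the correction for GC content. All set 2 libraries of that comparison were 405-min samples.

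Hspb8 (chr5:116858504-116872873, minus strand), the partner of BAG3, had 51.2, 55.1, 33.4, 46.7 and 44.6 CPM in the controls. Its values were 51.8, 49.2 and 61.0 CPM at 45 min, 72.7, 67.9 and 70.0 CPM at 135 min, and 152, 110, 105 and 117 CPM at 405 min. The order of the groups was control, 135 min and 405 min with no overlap between them, and the 45-min samples overlapped the controls. The log2 fold change was 0.22 (SE 0.17, edgeR adjusted p = 0.698) at 45 min, 0.60 (SE 0.17, edgeR adjusted p = 0.121) at 135 min and 1.39 (SE 0.16, edgeR adjusted p = 9.73e-05) at 405 min. In set 1 alone the 405-min value was 1.24 (SE 0.21), in set 2 alone 1.18 (SE 0.25), and it passed in all 28 alternatives. At 135 min the adjusted p was 0.0345 within set 1, 0.0105 with the set as a covariate and 0.0466 without control replicate 2. Hspb8 was the only member that passed between 135 and 405 min, with 0.79 (SE 0.18, edgeR adjusted p = 0.0259), where 2.24% of all genes rose. That difference did not pass with the set as a covariate (0.56, edgeR adjusted p = 0.0884) or within set 1 (0.57, edgeR adjusted p = 0.352), nor without any 1 of the 135-min samples or replicate 1 or 4 at 405 min (edgeR adjusted p up to 0.124), and all set 2 libraries of this comparison were 405-min samples.

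Cryab (chr9:50560863-50564738, plus strand) encodes alpha B-crystallin, a holdase of the lens, heart and skeletal muscle. The controls had 164, 146, 152, 163 and 101 CPM, the 45-min samples 165, 144 and 110 CPM, the 135-min samples 208, 210 and 229 CPM, and the 405-min samples 250, 191, 308 and 270 CPM. All samples at 135 and 405 min lay above all controls, while those at 135 and 405 min overlapped each other. The log2 fold change was -0.05 (SE 0.19, edgeR adjusted p = 0.904) at 45 min, 0.57 (SE 0.19, edgeR adjusted p = 0.187) at 135 min and 0.82 (SE 0.17, edgeR adjusted p = 0.00561) at 405 min. The 405-min value was 1.08 in set 1 alone (SE 0.23, edgeR adjusted p = 0.0378) and 0.68 in set 2 alone (SE 0.24, edgeR adjusted p = 0.147). A correction for GC content lowered it to 0.46 (edgeR adjusted p = 0.15), which ended the call.

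Hspb6 (chr7:31338321-31340458, plus strand), also called HSP20, was the member that fell. It had 26.0, 27.7, 29.8, 22.4 and 32.6 CPM in the controls, 29.8, 23.9 and 22.8 CPM at 45 min, 23.7, 24.2 and 22.6 CPM at 135 min, and 17.1, 18.8, 19.7 and 17.9 CPM at 405 min. All 405-min samples lay below all others. The log2 fold change was -0.12 (SE 0.17, edgeR adjusted p = 0.754) at 45 min, -0.24 (SE 0.17, edgeR adjusted p = 0.629) at 135 min and -0.59 (SE 0.15, edgeR adjusted p = 0.0168) at 405 min. At 405 min it did not pass in set 1 alone (-0.50, SE 0.28, edgeR adjusted p = 0.398) or in set 2 alone (-0.64, SE 0.24, edgeR adjusted p = 0.185), a correction for GC content gave -1.08 (SE 0.25), and the call was lost without replicate 1 (edgeR adjusted p = 0.0593) or replicate 4 at 405 min. The end of Hspb6 lies 2 bases from Lin37 on the opposite strand, a gene of the DREAM cell cycle complex, which rose at 405 min by 1.86 (SE 0.32, edgeR adjusted p = 0.00175), or by 1.5 with the set as a covariate (edgeR adjusted p = 0.00284). Whether reads were counted by strand is not given in the sources used here.

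Hspb1 (chr5:136363789-136365433, plus strand) had 5 counts in control replicate 1, 6 in replicate 2 at 45 min, 1 in replicate 1 at 405 min, and 0 in the other 12 samples. It was the only member outside the filter, as were 9931 of all genes. A count of 0 allows up to 3 counts, which correspond to 0.0991 to 0.451 CPM depending on the library, and these limits cover counting error only. The differences in mean log2 CPM (prior count 2) were 0.49, -0.41 and -0.24 at 45, 135 and 405 min, with two-sided exact permutation p-values of 0.732, 1.0 and 1.0. Its transcript of 930 bases has near-identical copies elsewhere in mm9 that cover 86.0% of it at 99.1% identity or more, the best being 482 bases at chr13:45174056-45174537 with 99.8%. No other member has such a copy. How the authors counted reads with several matches is not given in the sources used here, so the low value of Hspb1 cannot be read as a low level of its mRNA.

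Among the other BAG members none passed at any time. Bag1 (chr4:40883431-40895314, minus strand), which couples HSP70 to the proteasome, had 154 ± 27.7 CPM in control (SD, n = 5), 142 ± 20.6 at 45 min (n = 3), 153 ± 2.90 at 135 min (n = 3) and 149 ± 14.6 at 405 min (n = 4). The controls had 162, 120, 194, 155 and 139 CPM, the 45-min samples 152, 156 and 118 CPM, the 135-min samples 150, 156 and 154 CPM, and the 405-min samples 140, 159, 163 and 133 CPM. All samples at 135 and 405 min lay inside the range of the controls. The log2 fold change at 405 min was -0.04 (SE 0.14, edgeR adjusted p = 0.832).

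Bag2 (chr1:33802329-33814595, minus strand), an inhibitor of the ubiquitin ligase CHIP, had 44.3, 42.9, 64.1, 32.9 and 20.9 CPM in control and 38.2, 30 and 31.5 CPM at 45 min. It had 42.9, 41.8 and 50.4 CPM at 135 min and 62.2, 58.2, 49.3 and 54.6 CPM at 405 min. The controls spread over the range of all later samples, and control replicate 3 was their highest. The log2 fold change at 405 min was 0.46 (SE 0.24, edgeR adjusted p = 0.149), and 0.65 (edgeR adjusted p = 0.0387) without control replicate 3, the shallowest library.

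Bag4 (chr8:26875011-26895681, minus strand), also known as silencer of death domains, had 36.3 ± 12.2, 26.5 ± 4.25, 38.1 ± 2.40 and 32.1 ± 3.84 CPM (SD) in the 4 groups in order of time. Its samples had 36.5, 25.7, 54.8, 39.5 and 25.1 CPM in control, 29.3, 28.7 and 21.7 at 45 min, 40.7, 37.3 and 36.1 at 135 min, and 31.4, 34.7, 35.3 and 26.9 at 405 min. Control replicate 3, the shallowest library, was the highest of all. Bag5 (chr12:112948069-112951468, minus strand), which carries several BAG domains, had 28.2 ± 7.14, 36.4 ± 5.47, 25.3 ± 1.94 and 30.2 ± 3.48 CPM (SD). Its samples had 25.1, 35.7, 28.9, 17.7 and 33.4 CPM in control, 35.1, 31.7 and 42.4 at 45 min, 23.6, 24.9 and 27.4 at 135 min, and 31.1, 32.2, 25.1 and 32.5 at 405 min. The groups of both genes overlapped the controls at every time. The log2 fold changes at 405 min were -0.17 (SE 0.21) for Bag4 and 0.11 (SE 0.19) for Bag5, with edgeR adjusted p-values of 0.562 and 0.684. At 45 min they were -0.44 (SE 0.24) and 0.37 (SE 0.21), the largest absolute values of the members at that time, both with an edgeR adjusted p of 0.698.

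**Figure D2:**
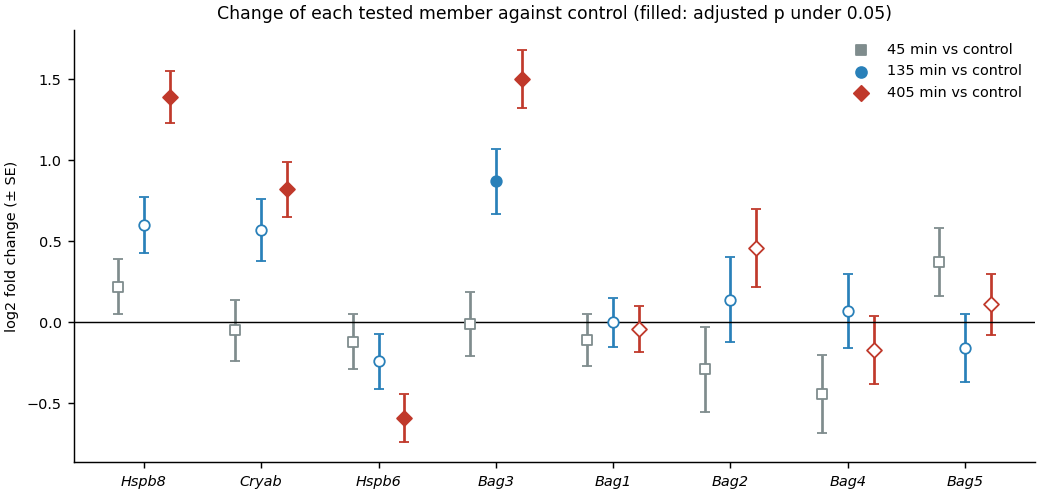
Log2 fold change against control (vertical axis, whiskers are the SE) of the 8 tested members at 45, 135 and 405 min after S1 removal; filled symbols have an edgeR adjusted p under 0.05. Bag3 and Hspb8 reach 1.5 and 1.39 at 405 min, Hspb6 reaches -0.59, and Bag1 stays within 0.11 of 0.

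At 45 min, edgeR called 0 of the 8 members and 0 of all genes in either direction (0.00%), no member had an unadjusted p under 0.05, and DESeq2 called no member. Over all genes 129 higher and 237 lower ones had an unadjusted edgeR p under 0.05, and DESeq2 called 2 up and 4 down. At 135 min 1 of the 8 members was up (Bag3) against 0.564% of all genes, and none was down against 0.895%, with 0 members at an unadjusted p under 0.05 in that direction and 0 by DESeq2. At 405 min 3 of the 8 were up against 9.99% of all genes and 1 was down against 13.4%. Over the 3 time points together, an F-test called Hspb8 (edgeR adjusted p = 0.000391), Bag3 (0.000404) and Cryab (0.0129) against 9.69% of all genes, and Hspb6 had an adjusted p of 0.0866. In this F-test Cryab did not pass with the GC correction (edgeR adjusted p = 0.131) or without replicate 4 at 405 min (0.0521), and Hspb6 passed with the GC correction (0.0428) or without control replicate 2 (0.0492). At 45 min no member lay above or below all controls, where 0.467% and 0.438% of all genes did so. All samples lay above all controls for Hspb8, Cryab and Bag3 at 135 min, against 4.83% of all genes, and for the same 3 members at 405 min, against 6.74%. No member lay below all controls at 135 min, against 4.73%, and Hspb6 did so at 405 min, against 6.40%. Between 135 and 405 min Hspb8 was up against 2.24% of all genes and no member was down against 2.82%, with 0 members at an unadjusted p under 0.05 and 0 by DESeq2 in that direction. In that comparison all 405-min samples were above all 135-min samples for Hspb8 and Bag3, against 19.0% of all genes, and below them for Hspb6 and Bag4, against 17.8%. The median log2 fold change at 405 min was 0.82 over the 3 tested small heat shock protein members and 0.11 over the 5 BAG members, beside -0.00 over all tested genes. The 3 comparisons with control share the same 5 control samples.

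Within a library, the ratio of members does not depend on how the library was scaled. Bag3 made up 8.48% to 14.3% of the summed RPKM of the 5 BAG members in the controls, 8.74% to 13.8% at 45 min, 15.6% to 17.5% at 135 min and 17.9% to 28.9% at 405 min. The control at 14.3% was replicate 2 and the 45-min sample at 13.8% was replicate 3, both of set 2, and the 405-min sample at 17.9% was the only one from set 1. Over the same groups the mean share of Bag1 went from 64.2% ± 5.37 (SD, n = 5) to 62.8% ± 5.58 (n = 3), 59.0% ± 0.552 (n = 3) and 51.5% ± 5.58 (n = 4). The lowest control share of Bag1, 55.4%, was in replicate 2, of set 2. Its highest share at 405 min, 58.6%, was in the only sample from set 1. The RPKM of Bag3 was 0.162 ± 0.0553 of that of Bag1 in control and 0.461 ± 0.139 of it at 405 min. In set 1 this ratio was 0.125 to 0.161 in control and 0.306 at 405 min. In set 2 it was 0.257 in control and 0.412 to 0.634 at 405 min. Bag1 was thus the BAG member with the highest RPKM in every sample, at 405 min too.

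Hspb8 and Bag3 encode partners of 1 complex. The ratio of their RPKM was 1.46 ± 0.367 (SD, n = 5) in control, 1.69 ± 0.120 at 45 min (n = 3), 1.19 ± 0.0834 at 135 min (n = 3) and 1.34 ± 0.146 at 405 min (n = 4), and the controls, from 0.924 to 1.83, covered the range of all later samples. Cryab gave 72.0% ± 5.37 of the summed RPKM of the small heat shock protein members in control and 72.4% ± 4.79 at 405 min. Hspb6 gave 9.4% to 18.4% of that sum in control, 6.86% to 7.83% at 135 min and 4.19% to 6.02% at 405 min. The ratio of Cryab to Hspb6 was 6.04 ± 1.75 in control, 10.3 ± 0.903 at 135 min and 15.5 ± 2.81 at 405 min. All samples at 135 and 405 min lay above the highest control, 8.12, and the highest 135-min and lowest 405-min values were both 11.3.

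**Figure D3:**
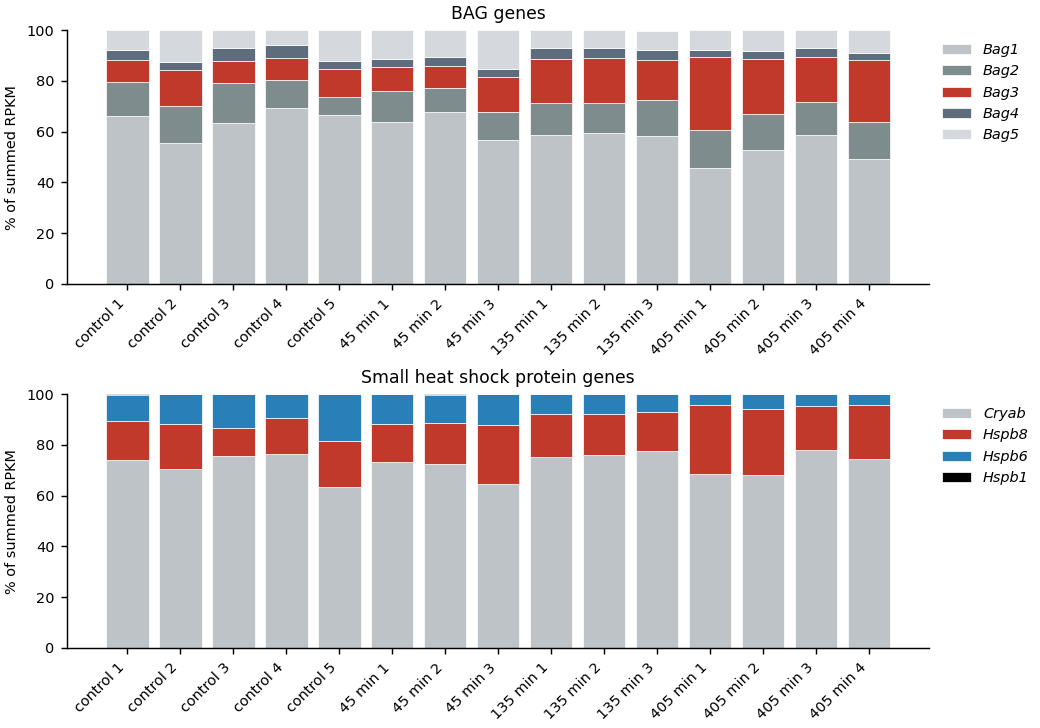
Share of each gene in the summed deposited RPKM of the 5 BAG members (upper bars, % on a linear axis from 0) and of the 4 small heat shock protein members (lower bars) in each of the 15 samples. The Bag3 band widens from between 8.48% and 14.3% in control to between 17.9% and 28.9% at 405 min, and the Hspb6 band narrows.

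Apart from Hspb11, the remaining genes listed here under small heat shock proteins were scarcely detected, and that listing does not test what they do. Of 7 listed, only Hspb11 was tested, at 72.2 ± 28.7 CPM in control, and its value against control at 405 min was -1.12 on the log2 scale (SE 0.42, edgeR adjusted p = 0.0651), or -0.33 with the library set as a covariate. At 135 min its value was -0.45 (edgeR adjusted p = 0.749), and -0.62 with that covariate, which passed (edgeR adjusted p = 0.0335). The other 6 had between 0 and 15 counts in any sample. Hspb2, a muscle gene, starts 404 bases from Cryab on the opposite strand, and had at most 10 counts where Cryab had between 871 and 6296. The remaining BAG gene, Bag6, listed as Bat3, had 54.4 ± 51.8 CPM in control and 144 ± 74.0 at 405 min, and its log2 fold change of 1.40 (edgeR adjusted p = 0.11) was 0.48 with the library set as a covariate.

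HSP70 itself is the partner of the BAG members described here. Of 9 HSP70 genes 7 were tested, of which 2 rose at 135 min, against 0.564% of all genes, and 3 at 405 min, against 9.99%. None fell against control at 135 or 405 min, where 0.895% and 13.4% of all genes did, and adding the library set as a covariate left the same genes called. Their median log2 fold changes were 0.30 and 0.29, beside -0.06 and -0.00 over all genes. Hspa8, the constitutive HSC70, had 4440 ± 1110 CPM in control and 10900 ± 1100 at 405 min, and rose by 0.87 (SE 0.20, edgeR adjusted p = 0.0478) at 135 min and 1.31 (SE 0.19, edgeR adjusted p = 0.000467) at 405 min. Hspa1b, an inducible HSP70, had 31.3 ± 16.2, 17.9 ± 7, 121 ± 15.9 and 15.9 ± 9.03 CPM (SD) in control and at 45, 135 and 405 min. It rose by 1.96 (SE 0.44, edgeR adjusted p = 0.039) at 135 min and was lower at 405 than at 135 min (-2.94 on the log2 scale, SE 0.49, edgeR adjusted p = 0.00632, or -1.99 with the library set as a covariate, edgeR adjusted p = 0.00284). Hspa1a and Hspa1b are at least 99.2% identical over most of their transcripts, so the value of each is uncertain. Hspa2 and Hspa13 also rose at 405 min, by 1.05 (SE 0.25, edgeR adjusted p = 0.00989) and 0.78 (SE 0.15, edgeR adjusted p = 0.00292). Hspa5, the HSP70 of the ER, had 0.29 (SE 0.18), or 0.44 with the covariate.

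Nucleotide exchange factors outside the BAG family were measured as well. All 8 listed genes were tested, with 1 up at 135 min, against 0.564% of all genes, and 4 up at 405 min, against 9.99%. None was down, against 0.895% and 13.4%, with a median log2 fold change of 0.58 at 405 min. Hsph1, which encodes HSP110, rose by 1.29 (SE 0.16, edgeR adjusted p = 0.000399) at 135 min and 1.11 (SE 0.15, edgeR adjusted p = 0.000286) at 405 min. At 405 min Hspbp1 (1.43, SE 0.48), Hyou1 of the ER (1.12, SE 0.29) and Grpel2 of mitochondria (0.66, SE 0.19) also passed, with edgeR adjusted p-values of 0.0428, 0.0159 and 0.024. With the library set as a covariate Hyou1 had 0.56 (edgeR adjusted p = 0.0258). Hspbp1 (0.61, edgeR adjusted p = 0.192) and Grpel2 (0.57, edgeR adjusted p = 0.0621) did not pass with it, whereas Hspa4l (0.77, edgeR adjusted p = 0.0313) and Grpel1 (0.54, edgeR adjusted p = 0.00624) did. Without the covariate Hspa4l and Grpel1 had 0.42 (SE 0.27) and 0.37 (SE 0.14).

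Of 8 partners of the BAG3 and HSPB8 complex in chaperone-assisted autophagy, 7 were tested. None was called at 135 min, where 0.564% of all genes rose and 0.895% fell. At 405 min 3 were up, against 9.99% of all genes, and none was down, against 13.4%. Their median log2 fold change at 405 min was 0.63. With the library set as a covariate, Sqstm1 (1.41, edgeR adjusted p = 0.000255) and Ywhag (0.73, edgeR adjusted p = 0.00574) passed at 135 min too. Sqstm1, the autophagy receptor p62, had 186 ± 105 CPM in control, 382 ± 5.46 at 135 min and 1240 ± 490 at 405 min, and rose by 2.75 (SE 0.40, edgeR adjusted p = 0.000467) at 405 min, or by 2.08 with the covariate (edgeR adjusted p = 7.65e-06). Ywhag, a 14-3-3 protein that binds BAG3, rose by 1.15 at 405 min (SE 0.27, edgeR adjusted p = 0.00961), or by 0.70 with the covariate (edgeR adjusted p = 0.00448). Hdac6, a deacetylase of the aggresome pathway, rose by 1.16 (SE 0.34, edgeR adjusted p = 0.0275), but did not pass with the library set as a covariate (0.80, edgeR adjusted p = 0.0949). Stub1, which encodes CHIP, had 0.63 (SE 0.31, edgeR adjusted p = 0.143), or 0.08 with the covariate (edgeR adjusted p = 0.815). Synpo2, which links BAG3 to autophagosome formation in muscle, had between 0 and 42 counts and was not tested.

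Of 4 heat shock factor genes 2 were tested, of which 1 rose at 135 min, against 0.564% of all genes, and 2 at 405 min, against 9.99%. None fell, against 0.895% and 13.4%. Hsf2 rose by 0.59 (SE 0.13, edgeR adjusted p = 0.0393) at 135 min and 1.13 (SE 0.12, edgeR adjusted p = 7.59e-05) at 405 min. Hsf1 rose by 1.46 (SE 0.47, edgeR adjusted p = 0.0374) at 405 min, a call that was lost with the library set as a covariate (0.85, edgeR adjusted p = 0.0879). Of the 4 listed kinases of the p38 pathway upstream of HSPB1, all tested, only Mapkapk5 passed. It fell at 405 min by 0.52 on the log2 scale (SE 0.16, edgeR adjusted p = 0.0354), where 13.4% of all genes fell. None rose, against 9.99% of all genes. The call of Mapkapk5 too was lost with the covariate (-0.24, edgeR adjusted p = 0.185). Mapk14, which encodes p38 alpha, and Mapkapk2 had 0.43 (SE 0.29) and 0.17 (SE 0.30) at 405 min, or 0.04 and -0.32 with the covariate.

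The genes whose profile over the 15 samples was closest to that of each member changed at any time were found by Pearson's r of log2 CPM, given as a description with no test, since the points share libraries, depth and the time course. For Hspb8 they were the proteasome subunit gene Psmc3 (0.984), Stk10 (0.983) and Ak1 (0.978). For Bag3 they were Nploc4, a cofactor of the p97 segregase (0.963), Procr (0.957) and Prdm2 (0.955). For Cryab they were Zwint (0.9), the proteasome assembly factor Pomp (0.878) and the proteasome subunit gene Psmd11 (0.877). Psmc3 went from 122 CPM in control to 352 CPM at 405 min, and Nploc4 from 88.5 to 247 CPM.

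**Figure D4:**
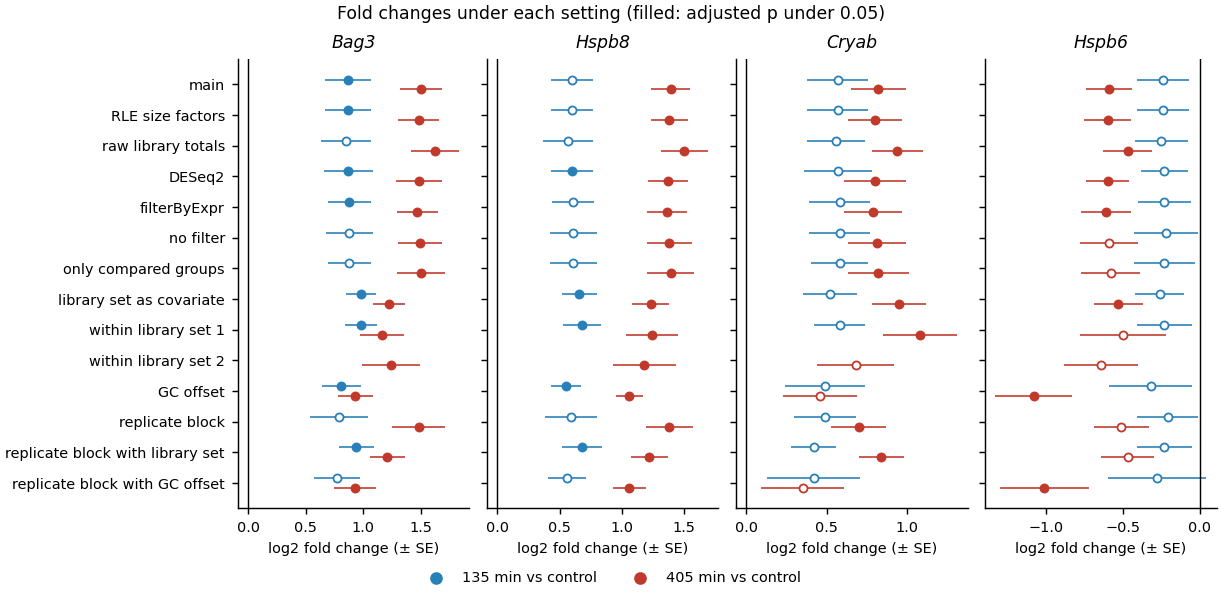
Log2 fold changes (horizontal axis, whiskers are the SE) of Bag3, Hspb8, Cryab and Hspb6 at 135 min (blue) and 405 min (red) under each processing alternative other than those that leave out a library; filled symbols have an adjusted p under 0.05. Bag3 and Hspb8 at 405 min are filled under every setting shown, and Cryab and Hspb6 are open under some.

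Genes within 5000 bases of the BAG members were read beside them. Chmp5, 126 bases from Bag1, had a log2 fold change of -0.25 (SE 0.25) at 405 min, and 2810002N01Rik, 4 bases from Bag5, had -0.17 (SE 0.28). Lsm1, 382 bases from Bag4, fell at 405 min by 0.90 on the log2 scale (SE 0.29, edgeR adjusted p = 0.0369). With the library set as a covariate Lsm1 had -0.33 (edgeR adjusted p = 0.308), Chmp5 0.23 and 2810002N01Rik 0.09. Gm17484 overlaps Bag4 on the opposite strand and has no row in the tables used here, so without a stated strand setting its reads and those of Bag4 cannot be told apart. No annotated gene lay within that distance of Bag3, Hspb8 or Hspb1.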

How the data were processed

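The authors aligned Illumina reads to mm9 with RefSeq genes in DNAnexus (aligner and strand setting not given in the sources used here); the labels name a NuGEN kit for these libraries, while the methods describe 2 preparations, poly(A) selection with random primers and a NuGEN kit, without saying which samples had which. The deposited read counts were expected counts: 8.7% to 15.6% of a sample's genes were not whole. Values carry at most 4 significant digits. They were rounded to whole numbers, since the planned test assumed counts. The deposited RPKM values were used for levels between genes. The deposited score (Z score) and the ratio of RPKM to its root mean square by the authors were not used. No pair of the 22 replicate pairs agreed within sampling noise (chi-square per degree of freedom 10.8 to 254.7).

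Genes with at least 1 count in all 15 samples (10276) were fitted with edgeR 4.0.16 in R 4.3.3 (TMM, quasi-likelihood, group only, all samples), with Benjamini-Hochberg adjustment over these genes and a threshold of 0.05, after the study's use of edgeR. The SE is the log2 fold change over the square root of F. On simulated counts for the 405-min comparison (10262 genes), 45 of 50 2-fold rises and 39 of 50 2-fold falls were recovered, with 10 false calls. These counts had a dispersion of 0.05 and no library sets, and the changed genes had means above 50 counts. The main fit of the real counts had a common dispersion of 0.102, so the recovery does not measure the sensitivity of the reported test. Library sets were cut at a slope of 0.15 log2 CPM per 10 points of exonic GC, and are not groups of the study. Coordinates are mm9 with GENCODE vM1. All members are named; of other lists, genes that passed and at most 2 others. Members, lists and tests were chosen with earlier results of these data known. Alternatives were RLE factors, DESeq2 1.42.0, other filters, only the compared groups, library set terms, a GC offset, a replicate block and leaving out each library; raw library totals, and the F-test under alternatives, were added after seeing the data.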

Additional observations from a re-analysis of the deposited data

Results flagged for a closer look

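In 18 groups of 4 or 5 samples, 3 held a sample far from the others; chance gives about 1 in 20. Control replicate 5 had 101 CPM of Cryab, below the other controls at 146 to 164 CPM. The other cases are Hspb1, with 0.363 CPM in control replicate 1 and 0.0684 CPM in replicate 1 at 405 min beside libraries at 0. A single library with a count beside libraries at 0 always passes this check, so the Hspb1 cases cannot be set against that rate. Hspb8 differed between the time points: its log2 fold change was 0.79 higher at 405 than at 135 min (edgeR adjusted p = 0.0259), and this call depended on the library set, as given above.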

How the results depend on the processing

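Of 880 alternative values of the tested members, 785 kept their direction and side of the threshold, 36 lost the call, 11 gained it and 48 changed sign; no value that changed sign had passed the test. Bag3 and Hspb8 at 405 min passed under all 28 alternatives. Members up at 135 min numbered 2 (Hspb8 and Bag3) with DESeq2, the GC offset, the library set as covariate, this covariate with the replicate block, and within set 1, but 0 with no filter, only the compared groups, raw library totals, the replicate block, or the block with the GC offset. Hspb6 was the member down at 405 min, and the count was 0 with no filter, only the compared groups, the block, the block with library set, and within set 1 or set 2. Members up from 135 to 405 min numbered 2 with DESeq2 and only the compared groups, and 0 with the covariate, no filter, the 3 fits with a block, and within set 1. With 1 library left out these counts ran from 0 to 2, 0 to 1 and 0 to 2. The cause of these changes was not tested. No 135-min fit within set 2 was possible.

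Signs of log2 fold changes turned as follows. At 45 min Cryab had 0.02 (raw totals) and 0.10 (set 1), and Bag3 0.07 (raw totals). At 405 min Bag1 had 0.15 (covariate), 0.09 (raw totals) and 0.26 (set 2), Bag4 0.16 (GC offset), 0.07 (covariate) and 0.27 (set 2), and Bag5 -0.23 (GC offset), -0.10 (covariate), -0.07 (set 1) and -0.17 (set 2). At 135 min Bag4 had -0.02 (set 1). From 135 to 405 min Cryab had -0.03 (GC offset), Bag1 0.21 (covariate), 0.09 (raw totals) and 0.07 (set 1), Bag4 0.06 (covariate), and Bag5 -0.03 (GC offset), -0.04 (covariate) and -0.02 (set 1). Hspb1 had 0.22 at 405 min within set 2. Without 1 library, Cryab and Bag3 at 45 min ran from -0.19 to 0.09 and from -0.17 to 0.10, Bag2 and Bag4 at 135 min from -0.01 to 0.36 and from -0.03 to 0.27, Bag1 and Bag5 at 405 min from -0.12 to 0.03 and from -0.02 to 0.21, Bag1 from 135 to 405 min from -0.08 to 0.01, and Hspb1 at 45 and 405 min from -0.41 to 0.94 and from -0.41 to 0.17.

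Samples with the same replicate number did not deviate together (mean correlation -0.11 over 19 pairs, 4 of them above 0.1, against 0.028 over 64 other pairs). The mean was 0.157 for pairs from the same library set and -0.168 for pairs from different sets. The set is thus mixed into this comparison, which cannot exclude a pairing by number. In the F-test over all times Cryab did not pass with the block (edgeR adjusted p = 0.085) or the block with the GC offset (0.289). With the replicate block Bag3 at 135 min had 0.79 (edgeR adjusted p = 0.325), Bag2 -0.09 and Bag4 -0.06, and Hspb6 at 405 min -0.51 (edgeR adjusted p = 0.0869). The block with the GC offset gave -0.14 for Bag2 at 135 min, 0.04 for Bag4 and -0.13 for Bag5 at 405 min, and -0.07 for Cryab and 0.04 for Bag4 from 135 to 405 min. The block with library set gave -0.06 for Bag2 and -0.14 for Bag4 at 135 min, 0.12 for Bag1 and -0.01 for Bag5 at 405 min, and 0.26 for Bag1, 0.13 for Bag4 and -0.01 for Bag5 from 135 to 405 min.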
